A study of Mus musculus with 16 samples.

Results

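The genes described here are 33 genes of hypoxia and glycolysis, measured in 16 mouse melanoma biopsies. They were chosen by name, as the probes that are not control spots and whose gene name in the array files is one of the 33 symbols. That gave 51 of the 55681 probes on the array. Of these, 50 probes passed the filter on dim probes, and all 33 genes were among the 21985 genes and transcripts tested. The brightest probe of each gene was used, and no member's probe was saturated in the tumour channel on any array.

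Each biopsy was hybridised on a 2-colour Agilent array, with Cy5 on the tumour RNA and Cy3 on a universal mouse reference RNA. The study asks how tumours differ before, during and after loss of response to BRAF inhibition. The control group held 4 untreated tumours, and 3 further groups of 4 tumours had been treated with a BRAF inhibitor for 4 days, for 60 days, or for 120 days, the last being labelled resistant. The drug, its dose, the mouse strain and age, and the way the tumours were grown are not given in the sources used here, so the groups can be described by treatment and time alone. Nothing in the labels says that the tumours are independent of each other, and p-values then measure only the spread between these biopsies. Title codes divide the tumours further. The 4-day tumours carry a code series of their own, and no code is shared between any of the groups. A difference in whatever the codes stand for, such as origin, and treatment therefore cannot be told apart in any comparison of groups.

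Cells that run short of oxygen stop destroying the HIF proteins, transcription factors that are marked for breakdown by prolyl hydroxylases when oxygen is plentiful. HIF then binds a short core motif near its target genes, which include most enzymes of glycolysis, the glucose importer and lactate exporter, angiogenic signals and the hydroxylases themselves. In melanoma, MAPK signalling downstream of BRAF is known to promote glycolysis as well, so the same genes can respond to oxygen, to the oncogene and to the mixture of cells in a biopsy.

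The core motif is shown first because it is the sequence feature these genes are known to share. The motif was searched as ACGTG and as GCGTG, on both strands, in the 250 bases before each start site of the RefSeq promoter table (build GRCm38.p6, whereas the array files place the probes on mm9). The table held 43 promoters for 31 of the 33 members. Slc2a3 and Ndrg1 were not matched. The ACGTG core was present in 19 of the 43 member promoters (44.2%), against 16.6% of all 32851 promoters. The GCGTG core was present in 24 (55.8%), against 28.2% of all. One core or the other was present in 33 (76.7%), against 38.6% of all, and 27 of the 31 genes had it in at least 1 promoter. A match is a description of the letters and not a bound site.

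The 60-base windows printed here belong to 5 of the 6 genes whose tumour values did not overlap between a pair of groups, and to Egln3, the gene with the widest range. Vegfa, the other such gene, is not shown. Its 2 entries in the table differ, 1 with an ACGTG core at position -211 from its start and the other with none. Ldha also has 2 entries that differ, and its window comes from the one with ACGTG cores, the other having none. The windows were chosen after the values were seen. Capitals mark the ACGTG core, written CACGT where it lies on the other strand, and overlapping cores are run together.
Slc16a3: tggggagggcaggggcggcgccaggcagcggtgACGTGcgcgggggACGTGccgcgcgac
Pgk1: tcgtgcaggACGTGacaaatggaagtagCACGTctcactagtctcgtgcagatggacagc
Pgam1: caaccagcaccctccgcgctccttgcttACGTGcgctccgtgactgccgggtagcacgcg
Ldha: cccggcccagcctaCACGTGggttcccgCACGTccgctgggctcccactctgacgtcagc
P4ha1: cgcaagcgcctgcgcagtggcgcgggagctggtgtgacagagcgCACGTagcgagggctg
Egln3: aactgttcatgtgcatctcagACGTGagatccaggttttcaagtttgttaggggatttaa

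The windows run from the gene's 5′ side toward the start site. The Slc16a3 and P4ha1 windows end 1 base before it (chromosome 11, 120949007 to 120949066, and chromosome 10, 59323236 to 59323295, both on the plus strand). The Ldha window ends 3 bases before its start (chromosome 7, 46845742 to 46845801, plus strand) and holds 3 cores over both strands. The Pgk1 window (chromosome X, 106186941 to 106187000, plus strand) holds 2 cores, and the Pgam1 window (chromosome 19, 41911729 to 41911788, plus strand) holds 1. The Egln3 window lies farthest out of these 6, with its first base 250 bases before the start (chromosome 12, 54204065 to 54204124, minus strand), and holds 1 core.

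Between 49% and 54.2% of probes were well above background on each array, and the number of arrays limits the precision. The arrays lay on 2 slides, each with 2 tumours of every group. All 10 melanocyte markers were measured. Their mean log2 ratio to the reference lay between 1.32 in resistant replicate 1 and 3.39 in 4-day replicate 2. Melanocytes of normal skin carry such markers too, so these values do not test the melanoma label. Markers of skin and of other tissues were present as well, with hair shaft and root sheath markers at 1.74 to 6.08 and skeletal muscle markers at 0.10 to 3.79. Resistant replicate 1 stood apart, with a median correlation of 0.698 to the other arrays against 0.836 to 0.916 for the rest. In such whole-tissue RNA, fewer cells of a type and less RNA per cell cannot be told apart.

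None of the 33 genes passed the test in any of the 6 comparisons between groups, nor in the F test over all 4 groups. All values are log2 ratios of tumour to reference RNA, differences are log2 differences of group means ± SE over 4 tumours against 4, and the threshold was an adjusted p of 0.05 (limma, Benjamini-Hochberg over all genes tested). Against untreated tumours, 0 members passed at 4 days (1.34% of all genes), 0 at 60 days (0.819%) and 0 in resistant tumours (0.0182%). Comparing the treated groups with each other, 0 members passed at 60 days against 4 days (0% of all genes), in resistant against 4-day tumours (0.00455%) and in resistant against 60-day tumours (0%). The F test called 0.268% of all genes. At these background shares, even an average set of 33 genes would hold less than 1 call in each comparison.

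At an unadjusted p under 0.05 the counts of members were 5 at 4 days against untreated (15.2%, against 16.7% of all genes), 2 at 60 days (6.06%, against 18.7%) and 2 in resistant tumours (6.06%, against 9.52%). All 3 shares lay below those of all genes. Between treated groups the counts were 3 at 60 days against 4 days (9.09%, against 1.87%), 9 in resistant against 4-day tumours (27.3%, against 8.19%) and 3 in resistant against 60-day tumours (9.09%, against 5.67%). These 3 shares lay above the background, but the genes are not independent of each other and the comparisons share tumours.

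**Figure D1:**
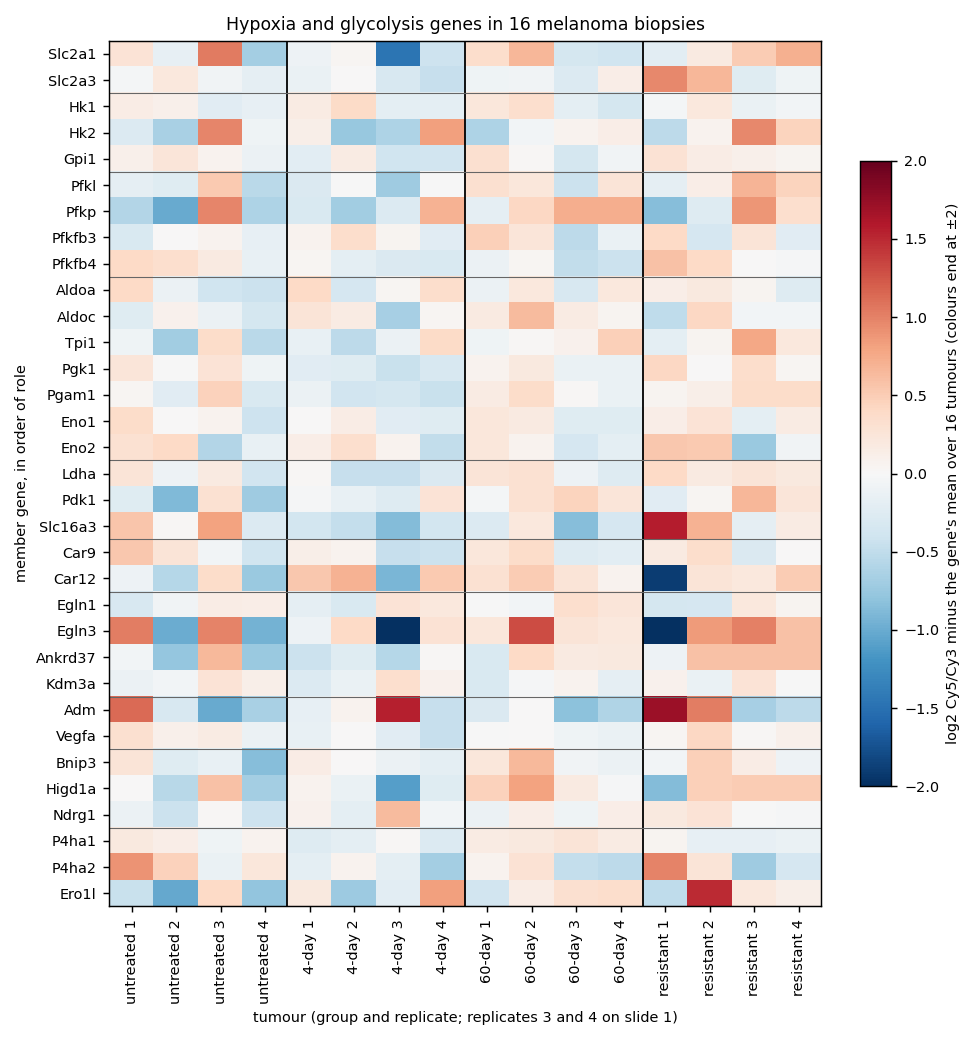
Each row is one of the 33 genes in order of role, each column a tumour, and the colour gives the log2 Cy5 over Cy3 ratio minus the gene's mean over the 16 tumours, with colours ending at 2 on either side. Egln3 reaches the end of the colours in resistant replicate 1 (log2 ratio -3.18) and in 4-day replicate 3 (-2.10), while P4ha1, with a range of 0.54, stays pale throughout.

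The members' median difference was below that of all genes at 4 days against untreated and above it in the other 5 comparisons. It was -0.09 at 4 days against untreated, where the median of all genes was -0.01, and 14 of 33 members had a difference above 0. It was 0.11 at 60 days (all genes 0.00, 19 members above 0) and 0.17 in resistant tumours (all genes 0.01, 28 members above 0). Among all genes, 48.7%, 50.2% and 52.2% had a difference above 0 in these 3 comparisons. The 4-day median became 0.02 when untreated replicate 3, on slide 1, was left out. It was -0.13 within slide 1 and -0.08 within slide 2, which does not hold that tumour. With each array centred on its median in place of loess, the 3 medians were -0.02, 0.23 and 0.16 (all genes 0.04, 0.05 and -0.02), with 16, 25 and 24 members above 0.

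Between treated groups the members' median was 0.19 at 60 days against 4 days (all genes 0.02), 0.23 in resistant against 4-day tumours (all genes 0.01) and 0.11 in resistant against 60-day tumours (all genes 0.00). There were 24, 27 and 23 of 33 members above 0, where all genes had 54.5%, 51.9% and 49.4%. With median centring, the last of these medians was -0.08, with 12 of 33 members above 0. The first 2 kept their sign under that scaling, at 0.19 and 0.10.

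**Figure D2:**
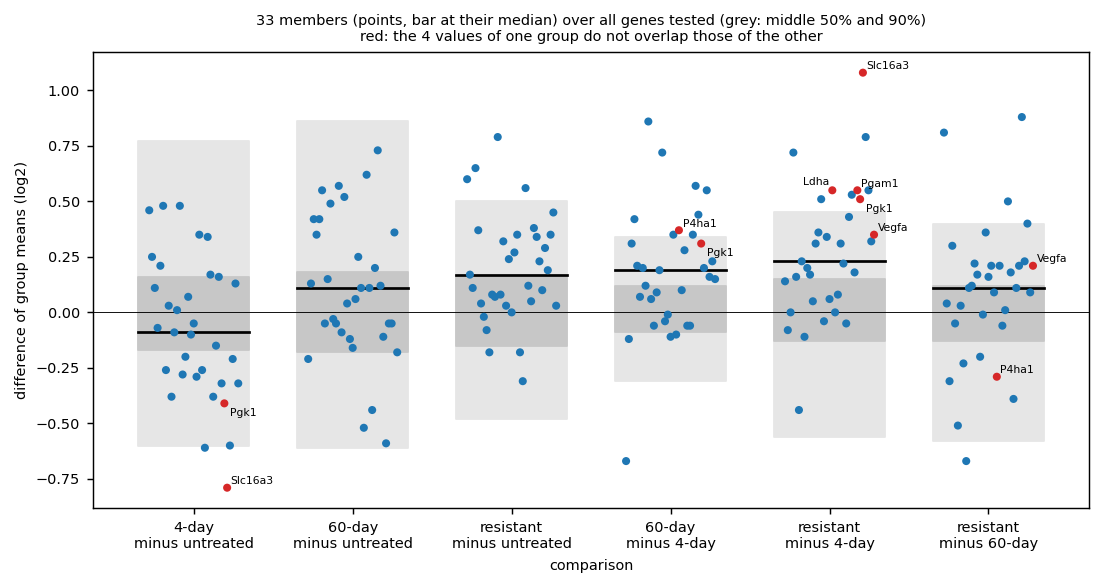
Points are the log2 differences of group means of the 33 genes in each of the 6 comparisons, with a bar at their median, over grey bands that hold the middle 50% and 90% of all genes tested. Red points are genes whose 4 values in one group do not overlap the 4 in the other, such as Slc16a3 at 1.08 in resistant against 4-day tumours.

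The tumour values of a pair of groups did not overlap for a few members. At 4 days, Pgk1 and Slc16a3 lay wholly below the untreated tumours (4.1% of all genes did so). No member was separated from untreated tumours at 60 days (13.7% of all genes were, in either direction) or in resistant tumours (4.26%). At 60 days, Pgk1 and P4ha1 lay wholly above the 4-day tumours (0.801% of all genes). In the resistant group, 5 members, Pgk1, Pgam1, Ldha, Slc16a3 and Vegfa, lay wholly above the 4-day tumours (15.2% of members, against 1.35% of all genes in that direction). In resistant against 60-day tumours, Vegfa lay wholly above (1.09% of all genes) and P4ha1 wholly below (2.51%). These separations are not separate observations, since the comparisons share tumours and Pgk1, Slc16a3, P4ha1 and Vegfa each appear in more than 1 of them. Marker lists differed between the same groups. At 4 days against untreated, the median difference was 0.94 over 10 melanocyte markers (9 above 0), 1.71 over 12 hair shaft and root sheath markers (12 above 0) and -0.68 over 10 proliferation markers (0 above 0), with 1, 0 and 1 of these genes past the test. For 10 adipocyte markers it was 0.57 (9 above 0, 1 past the test), with 1.23 on slide 1 and -0.01 on slide 2. In resistant against 4-day tumours the largest median difference was -1.37, for the hair shaft and root sheath list (0 of 12 above 0). It was -0.99 for the melanocyte list and 1.19 for 7 granulocyte markers, with 0 past the test in these 3 lists. The hair shaft median was -0.35 on slide 1 and -2.48 on slide 2, and the granulocyte median 0.46 and 2.01. In each comparison, the lists not given had smaller median differences in size. What part the marker lists have in the members' values was not tested.

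Glucose entry was covered by Slc2a1 and Slc2a3, which encode the glucose transporters GLUT1 and GLUT3. Slc2a1 (probe on chromosome 4, 118809864 to 118809923, mm9) was at -1.25, -1.68, -0.48 and -2.19 in untreated replicates 1 to 4 and at -1.62, -1.47, -2.98 and -1.93 in the 4-day tumours. It was at -1.17, -0.86, -1.86 and -1.91 after 60 days and at -1.72, -1.33, -1.01 and -0.80 in resistant tumours. One untreated tumour was the highest of all 16 and one 4-day tumour the lowest, and every pair of groups overlapped. Resistant minus 4-day was 0.79 ± 0.39 (adjusted p = 0.631), and 4-day minus untreated was -0.60 ± 0.39 (adjusted p = 0.486). Leaving out 4-day replicate 3 alone reduced these to 0.46 and -0.27. Slc2a3 had group means of -1.05 ± 0.17 untreated, -1.25 ± 0.20 at 4 days, -1.09 ± 0.16 at 60 days and -0.70 ± 0.58 in resistant tumours (SD, n = 4).

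The hexokinases trap glucose in the cell by phosphorylation, and Gpi1 encodes the isomerase that follows. Hk2, the hexokinase most often induced in tumours, ranged from -0.72 to 1.01 over the 16 tumours, and its 4 group means lay between -0.09 and 0.27. Hk1 means lay between -0.36 and -0.29, and Gpi1 means between -1.23 and -0.87. None of the 3 differed between groups by more than 0.36. The 3 probes for Hk1 did not behave alike, as the other two correlated with the probe used at -0.27 and -0.54 over the tumours. The 3 Gpi1 probes correlated at 0.98 or above.

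Phosphofructokinase commits sugar to glycolysis, and the PFKFB enzymes make the fructose bisphosphate that activates it. Pfkfb4 (chromosome 9, 108934652 to 108934711, mm9) was at 1.52, 1.47, 1.31 and 0.98 in untreated tumours and at 1.17, 0.93, 0.84 and 0.82 at 4 days. It was at 1.01, 1.16, 0.63 and 0.70 at 60 days and at 1.72, 1.53, 1.13 and 1.11 in resistant tumours. In every group the tumours of replicates 1 and 2, on slide 2, were higher than those of replicates 3 and 4, on slide 1. The 60-day minus untreated difference was -0.44 ± 0.17 (adjusted p = 0.191). With the slide as a block in the model it was -0.44 ± 0.10 (adjusted p = 0.0318), and Pfkfb4 was then the only member called in any comparison (2.81% of all genes were called in that comparison with the block). Within slide 1 the difference was -0.48 and within slide 2 it was -0.41. Resistant minus 60-day was 0.50 ± 0.17 (adjusted p = 0.867, and 0.599 with the block).

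Pfkp, the platelet form of phosphofructokinase, was the member with the largest positive difference at 60 days against untreated, 0.73 ± 0.44 (adjusted p = 0.407). It was at -1.41, -1.82, 0.16 and -1.43 in untreated tumours and at -1.12, -1.52, -1.10 and -0.12 at 4 days. It was at -1.00, -0.40, -0.09 and -0.10 at 60 days and at -1.67, -1.07, 0.07 and -0.49 in resistant tumours. A single high tumour, replicate 3, set the untreated group apart from the other 3 of its kind. Without that tumour the difference was 1.16, and with resistant replicate 1 left out too it passed the test (1.16 ± 0.34, adjusted p = 0.0417), in a setting that called 12.5% of all genes. A dimmer second probe, well above background on 10 arrays, gave 0.20 for this comparison and correlated at 0.08 with the probe used. Pfkl, the liver form, had group means between -1.95 and -1.42, and Pfkfb3 means between 0.96 and 1.13.

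The steps from aldolase to pyruvate were covered by Aldoa, Aldoc, Tpi1, Pgk1, Pgam1, Eno1 and Eno2. Several of these genes have processed copies elsewhere in the mouse genome, and whether a probe also reads those was not tested. Pgk1, which makes the first ATP of glycolysis (chromosome X, 103398640 to 103398699, mm9), had the smallest adjusted p of any member against untreated. It was at -1.74, -1.99, -1.71 and -2.07 in untreated tumours and at -2.21, -2.22, -2.43 and -2.30 at 4 days. It was at -1.92, -1.79, -2.12 and -2.11 at 60 days and at -1.57, -1.97, -1.63 and -1.94 in resistant tumours. All 4-day tumours lay below all 12 others, while the other 3 groups overlapped each other. The differences were -0.41 ± 0.13 for 4-day minus untreated (adjusted p = 0.128), 0.31 ± 0.13 for 60-day minus 4-day (adjusted p = 1) and 0.51 ± 0.13 for resistant minus 4-day (adjusted p = 0.397). These comparisons share the 4-day tumours and are not separate observations. The other probe for Pgk1 gave -0.38, 0.30 and 0.47.

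Pgam1, the mutase of the next step (chromosome 19, 41992898 to 41992957, mm9), was at -1.98, -2.25, -1.56 and -2.32 in untreated tumours and at -2.14, -2.41, -2.38 and -2.46 at 4 days. It was at -1.85, -1.66, -1.99 and -2.15 at 60 days and at -1.97, -1.90, -1.65 and -1.66 in resistant tumours. The 4-day tumours lay below all resistant ones but overlapped the untreated group and, by 0.01, the 60-day group. The resistant minus 4-day difference was 0.55 ± 0.16 (adjusted p = 0.511), a 1.46-fold ratio, with 0.76 on slide 1 and 0.34 on slide 2.

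The remaining enzymes of these steps showed smaller differences between groups. Aldoa means ran from -0.15 untreated to 0.10 at 4 days, and its differences of -0.12 ± 0.21 at 60 days against 4 days and -0.08 ± 0.21 in resistant against 4-day tumours were among the lowest of the members there. Aldoc means lay between -1.52 and -1.10, Tpi1 means between -1.95 and -1.51, and Eno1 means between -0.82 and -0.65. Eno2, the neuronal enolase, had group means from -2.03 to -1.91, a gap of 0.12, although single tumours ran from -2.72 to -1.44.

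Pyruvate is turned into lactate by Ldha, and its oxidation in the mitochondria is held back by Pdk1. The lactate leaves the cell through Slc16a3, which encodes MCT4. Slc16a3 (chromosome 11, 120820030 to 120820089, mm9) had the largest difference of any member in any comparison. It was at -0.68, -1.21, -0.42 and -1.51 in untreated tumours and at -1.59, -1.71, -2.09 and -1.60 at 4 days. It was at -1.50, -1.02, -2.08 and -1.57 at 60 days and at 0.34, -0.54, -1.41 and -1.07 in resistant tumours. The 4-day tumours lay below all untreated and all resistant tumours, and resistant replicate 1 was the highest of the 16. Resistant minus 4-day was 1.08 ± 0.34 (2.11-fold, adjusted p = 0.520), resistant minus 60-day was 0.88 ± 0.34 (adjusted p = 0.867), and 4-day minus untreated was -0.79 ± 0.34 (adjusted p = 0.263). Without resistant replicate 1 the first 2 were 0.74 and 0.54. At 60 days against untreated it was -0.59 ± 0.34 (adjusted p = 0.375).

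Ldha (chromosome 7, 54110937 to 54110996, mm9) was at -0.71, -1.07, -0.80 and -1.36 in untreated tumours and at -0.95, -1.43, -1.43 and -1.27 at 4 days. It was at -0.71, -0.67, -1.08 and -1.24 at 60 days and at -0.58, -0.79, -0.72 and -0.78 in resistant tumours. The resistant tumours lay close together and above all 4-day tumours. The difference from the 4-day group was 0.55 ± 0.17 (1.47-fold, adjusted p = 0.518). The other probes for the gene gave 0.36 and 0.62, but correlated with the probe used at only 0.24 and 0.65 over the tumours.

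Pdk1 was at -2.08, -2.72, -1.54 and -2.55 in untreated tumours and at -1.87, -1.99, -2.10 and -1.56 at 4 days. It was at -1.88, -1.53, -1.39 and -1.59 at 60 days and at -2.06, -1.80, -1.17 and -1.60 in resistant tumours. Untreated replicate 3 was as high as the treated tumours, whereas replicates 2 and 4 lay below every treated tumour. The 60-day minus untreated difference was 0.62 ± 0.24 (adjusted p = 0.191). Without untreated replicate 3 it was 0.85 ± 0.21 and passed the test (adjusted p = 0.0424), as did 5% of all genes. Resistant minus untreated was 0.56 ± 0.24 (adjusted p = 0.468), and 0.92 ± 0.21 (adjusted p = 0.0296) with resistant replicate 1 and untreated replicate 3 both left out, where 4.8% of all genes were called. The F test called 6.01% of all genes there. That pair was chosen after seeing that those arrays stand apart.

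**Figure D3:**
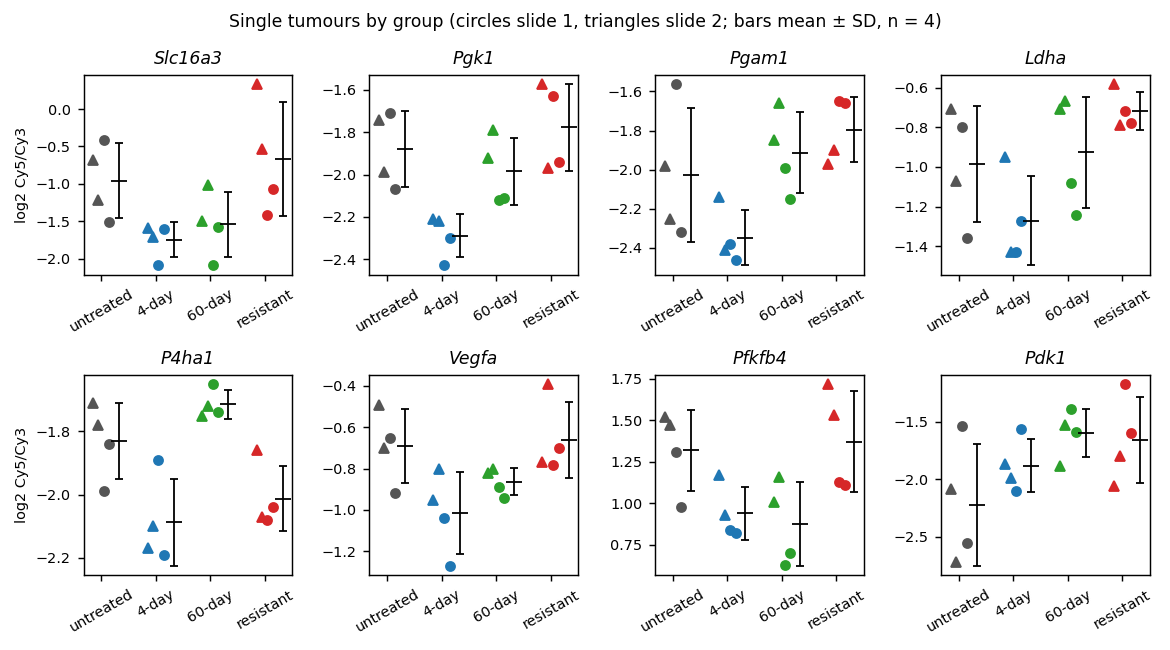
Points are the log2 Cy5 over Cy3 ratios of single tumours for 8 genes by group, circles on slide 1 and triangles on slide 2, with the mean ± SD of the 4 tumours beside them. In the Pgk1 panel all 4-day tumours, at -2.43 to -2.21, lie below every other tumour.

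Acid balance at the cell surface is kept by carbonic anhydrases, of which Car9 is a classical hypoxia marker. Car9 means were -1.43 ± 0.41 untreated, -1.69 ± 0.31 at 4 days, -1.48 ± 0.31 at 60 days and -1.45 ± 0.27 in resistant tumours (SD, n = 4), so that no pair of means was farther apart than 0.26. Car12 was at 1.53, 1.05, 1.99 and 0.88 in untreated tumours and at 2.16, 2.32, 0.71 and 2.15 at 4 days. It was at 1.93, 2.13, 1.88 and 1.70 at 60 days and at -0.27, 1.89, 1.83 and 2.14 in resistant tumours. One 4-day and one resistant tumour lay far below the others of their groups. Resistant minus 4-day was -0.44 ± 0.47 (adjusted p = 0.891) and resistant minus 60-day -0.51 ± 0.47 (adjusted p = 0.995), and without resistant replicate 1 these turned to 0.12 and 0.05. At 4 days the difference from untreated was 0.48 ± 0.47 (adjusted p = 0.709), and 0.85 without 4-day replicate 3.

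Oxygen sensing and its feedback were covered by Egln1 and Egln3, the prolyl hydroxylases PHD2 and PHD3, by Ankrd37, a HIF target, and by Kdm3a, a histone demethylase that HIF induces. Egln3 (chromosome 12, 55280953 to 55281012, mm9) spanned 4.41 on the log2 scale over the 16 tumours, a 21.3-fold range and the widest of the members. It was at 0.95, -1.06, 0.92 and -1.02 in untreated tumours and at -0.17, 0.33, -2.10 and 0.21 at 4 days. It was at 0.16, 1.23, 0.19 and 0.14 at 60 days and at -3.18, 0.78, 0.94 and 0.52 in resistant tumours. The untreated tumours fell into a high and a low pair, and single low tumours set the 4-day and resistant means. The largest difference was 0.86 ± 0.84 for 60-day minus 4-day (adjusted p = 1, and 0.31 without 4-day replicate 3), and resistant minus 60-day was -0.67 ± 0.84 (adjusted p = 1). Resistant minus untreated was -0.18 ± 0.84 (adjusted p = 0.976) and turned to 0.80 without resistant replicate 1, to 0.15 without untreated replicate 1 and to 0.14 without untreated replicate 3. The other Egln3 probe correlated at 0.99 with the one used.

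Ankrd37 was at -2.63, -3.35, -1.92 and -3.32 in untreated tumours and at -3.00, -2.82, -3.14 and -2.55 at 4 days. It was at -2.88, -2.17, -2.39 and -2.38 at 60 days and at -2.67, -1.98, -1.98 and -1.99 in resistant tumours. Resistant replicates 2, 3 and 4 lay within 0.01 of each other, and replicate 1 lay lower. Against 4-day tumours the resistant difference was 0.72 ± 0.28 (adjusted p = 0.552) and resistant minus untreated 0.65 ± 0.28 (adjusted p = 0.476). With resistant replicate 1 and untreated replicate 3 left out, the latter was 1.12 ± 0.22 (adjusted p = 0.0161). Egln1 means lay between -0.39 and -0.16 and Kdm3a means between -0.79 and -0.62. Egln1 in resistant against 4-day tumours (-0.11 ± 0.17) and Kdm3a at 60 days against 4 days (-0.11 ± 0.14) were among the 3 lowest members of their comparisons.

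The secreted products were Vegfa, the main signal for new vessels, and Adm, the vasodilator peptide adrenomedullin. Vegfa (chromosome 17, 46154387 to 46154446, mm9) was at -0.49, -0.70, -0.65 and -0.92 in untreated tumours and at -0.95, -0.80, -1.04 and -1.27 at 4 days. It was at -0.82, -0.80, -0.89 and -0.94 at 60 days and at -0.77, -0.39, -0.78 and -0.70 in resistant tumours. The resistant tumours lay above all 4-day and all 60-day tumours, in the case of the nearest values by no more than a few hundredths. Resistant minus 4-day was 0.35 ± 0.13 (adjusted p = 0.542) and resistant minus 60-day 0.21 ± 0.13 (adjusted p = 0.901), the latter 0.11 without resistant replicate 2. A second probe for the gene gave 0.52 and 0.11, and correlated with the probe used at 0.49 over the tumours.

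Adm was at -0.48, -1.94, -2.62 and -2.27 in untreated tumours and at -1.78, -1.54, -0.06 and -2.08 at 4 days. It was at -1.90, -1.60, -2.43 and -2.21 at 60 days and at 0.09, -0.59, -2.28 and -2.14 in resistant tumours. Untreated replicate 1, 4-day replicate 3 and resistant replicates 1 and 2 lay far above the other 12, and no group was set apart. Its differences were 0.81 ± 0.58 for resistant minus 60-day (adjusted p = 0.942), -0.67 ± 0.58 for 60-day minus 4-day (adjusted p = 1), 0.60 ± 0.58 for resistant minus untreated (adjusted p = 0.810) and 0.46 ± 0.58 for 4-day minus untreated (adjusted p = 0.794). Single tumours set these sizes. The differences of resistant tumours from 60-day and untreated ones were 0.37 and 0.16 without resistant replicate 1, and the other 2, both with the 4-day group, were -0.24 and 0.03 without its replicate 3. Without untreated replicate 1 the last 2 were 1.05 and 0.91.

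Bnip3, which marks mitochondria for removal, Higd1a, a mitochondrial protein induced by low oxygen, and Ndrg1, a stress-induced gene linked to differentiation, had positive differences from untreated at 60 days and in resistant tumours. None passed the test. Bnip3 differed by 0.42 and 0.37, Higd1a by 0.52 and 0.32, and Ndrg1 by 0.25 and 0.35 in these 2 comparisons. Higd1a was at -0.37, -0.93, 0.20 and -1.07 in untreated tumours, at -0.32, -0.52, -1.48 and -0.63 at 4 days, at 0.08, 0.42, -0.20 and -0.40 at 60 days and at -1.25, 0.10, 0.13 and 0.12 in resistant tumours. It thus had a single low tumour in each of the 4-day and resistant groups, the same 2 tumours in which Egln3 and Car12 were lowest. Higd1a at 60 days minus 4 days was 0.72 ± 0.36 (adjusted p = 1), and 0.47 without 4-day replicate 3.

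P4ha1 and P4ha2 encode the enzymes that hydroxylate collagen prolines, and Ero1l (now Ero1a) an oxidase that helps form disulfide bonds in new proteins. P4ha1 (chromosome 10, 58835625 to 58835684, mm9) had the narrowest range of the members, 0.54 over all 16 tumours. It was at -1.71, -1.78, -1.99 and -1.84 in untreated tumours and at -2.17, -2.10, -1.89 and -2.19 at 4 days. It was at -1.75, -1.72, -1.65 and -1.74 at 60 days and at -1.86, -2.07, -2.08 and -2.04 in resistant tumours. The 60-day tumours lay above all 4-day and all resistant tumours. The differences were 0.37 ± 0.10 for 60-day minus 4-day (adjusted p = 1) and -0.29 ± 0.10 for resistant minus 60-day (adjusted p = 0.867). A dimmer second probe gave 0.19 and 0.06 for these, so that the probes differ in sign in the latter. P4ha1 at -0.18 ± 0.10 was also among the lowest members in resistant against untreated tumours (adjusted p = 0.592).

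P4ha2 was at -0.81, -1.25, -1.84 and -1.48 in untreated tumours, at -1.90, -1.64, -1.90 and -2.39 at 4 days, at -1.63, -1.41, -2.18 and -2.22 at 60 days and at -0.72, -1.45, -2.41 and -2.04 in resistant tumours. It differed from untreated by -0.61 ± 0.33 at 4 days (adjusted p = 0.372), -0.52 ± 0.33 at 60 days (adjusted p = 0.430) and -0.31 ± 0.33 in resistant tumours (adjusted p = 0.834). All groups overlapped. The 60-day value was -0.34 without untreated replicate 1, and the resistant value was -0.05 without resistant replicate 3 and -0.62 without resistant replicate 1. Ero1l differed from untreated in the other direction, by 0.48 ± 0.42, 0.57 ± 0.42 and 0.79 ± 0.42 (adjusted p = 0.647, 0.504 and 0.581). The 4-day value was 0.21 when replicate 4 of that group was left out, and the resistant value was 0.40 when its replicate 2 was. Leaving out untreated replicate 2 gave 0.38 at 60 days. Its single values ran from -3.57 in untreated replicate 2 to -1.06 in resistant replicate 2.

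Ldha, Pgam1, Vegfa and P4ha1 are described in these comparisons because their groups did not overlap, which was seen in the values first. The other genes given in full had the 3 highest or 3 lowest differences of a comparison, or did not overlap with untreated tumours.

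More members differed between the slides than between any pair of groups, in a comparison of 8 tumours against 8 rather than 4 against 4. It was added after seeing the data, with the groups kept in the model. Of the 33 members, 13 (39.4%) differed between slide 2 and slide 1, against 28.4% of all genes. There were 9 that were higher on slide 2 (14.9% of all genes were), among them P4ha2 (0.71 ± 0.14, adjusted p = 0.00275), Eno2 (0.63 ± 0.12, adjusted p = 0.00216) and Car9 (0.52 ± 0.07, adjusted p = 0.000294). The others higher on slide 2 were Hk1, Pfkfb4, Eno1, Gpi1, Slc2a3 and Bnip3, by 0.27 to 0.38. The 4 that were lower (13.5% of all genes were) were Pfkp (-0.86 ± 0.23, adjusted p = 0.0121), Hk2 (-0.67 ± 0.23, adjusted p = 0.0434), Egln1 (-0.41 ± 0.06, adjusted p = 0.000311) and Kdm3a (-0.24 ± 0.08, adjusted p = 0.0361). Each slide held 2 tumours of every group. In the 60-day and resistant groups the title codes follow the slides, so that there the slide and whatever the code stands for cannot be told apart. The reference channel also differed by slide before normalisation. Median Cy3 was 66.7 to 74.3 on the arrays of slide 1 and 112 to 122 on those of slide 2. Median Cy5 overlapped, at 84.9 to 109 and 80.6 to 110. Whether the reference channel has a part in the slide differences was not tested. The number of members called was between 9 and 14 when single tumours were left out.

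**Figure D4:**
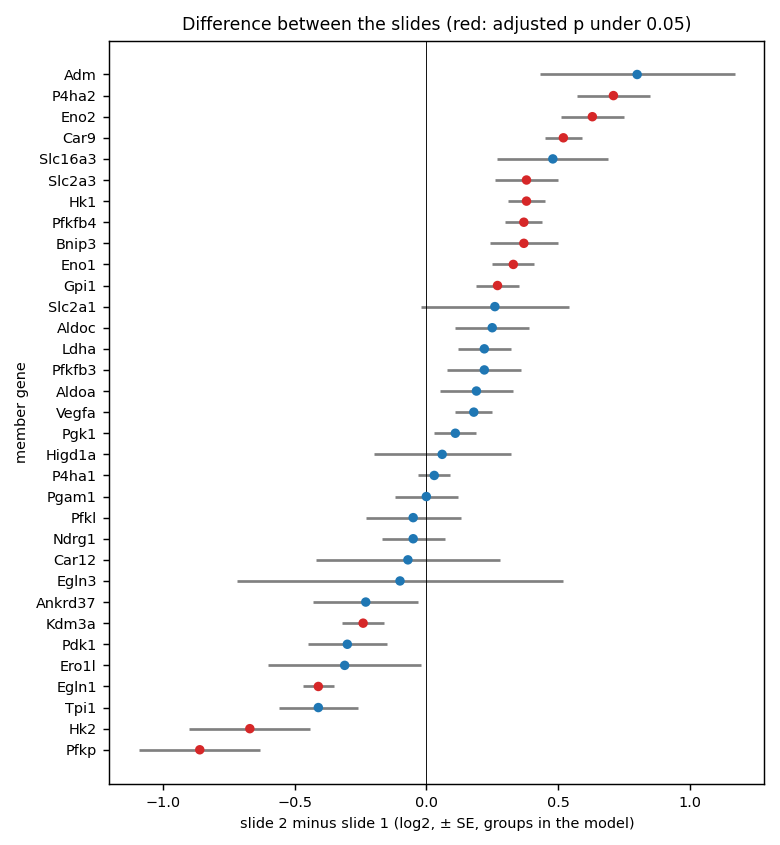
For each of the 33 genes the point is the log2 difference of slide 2 minus slide 1 with its SE, with the treatment groups in the model, and red points have an adjusted p under 0.05. Red points lie on both sides of 0, from Pfkp at -0.86 to P4ha2 at 0.71.

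The members did not form one block across tumours. Over the 528 pairs of members, the median Pearson correlation across the 16 tumours was 0.18, with quartiles at -0.12 and 0.49, given as a description of tumours that share slides and reference. There were 42 pairs above 0.7 and 30 pairs below -0.5. Eno1 and Car9 correlated at 0.91, with 0.86 on slide 1 and 0.69 on slide 2. Car12 and Egln3 correlated at 0.89, Tpi1 and Pdk1 at 0.89, Egln3 and Higd1a at 0.88, and Pgk1 and Ldha at 0.85. The Car12, Egln3 and Higd1a values rest in part on resistant replicate 1 and 4-day replicate 3, where all 3 were low.

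Several members followed the markers of particular cell types from tumour to tumour. Correlations of the 33 members with 11 marker lists gave 363 pairs, a family added after seeing the data, with permutation p-values (100000 permutations, 2-sided) adjusted over all pairs. The permutations ran over all tumours without regard to slide or group. A shift shared by the tumours of a slide or group therefore counts as association in these p-values. Of the 363 pairs, 29 had an adjusted p under 0.05 by Pearson, and 22, with 13 different genes, had one by both Pearson and Spearman. The 22 were spread over fibroblast (7 pairs), endothelial (4), granulocyte (3), macrophage (2), erythroid (2), skeletal muscle, melanocyte, keratinocyte and adipocyte lists (1 each), and none involved the hair shaft or proliferation list. Whether the cell mixture accounts for any of these values was not tested.

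Eno2 and the endothelial list, at 1.42 to 2.50 over the tumours, had r = 0.92 and rho = 0.95 (permutation p = 1e-05 for both, the smallest that can be given, adjusted p = 0.00121). The correlation was 0.93 on slide 1, 0.82 on slide 2, and 0.92 without the 2 tumours farthest from the median. P4ha2 and the macrophage list had r = 0.85 and rho = 0.81 (permutation p = 5e-05 and 0.00024, adjusted p = 0.00302 and 0.00968), with 0.62 and 0.98 on the slides and 0.69 without the 2 farthest tumours. P4ha2 also followed the fibroblast list (r = 0.81, rho = 0.73, adjusted permutation p = 0.00686 and 0.0333), with 0.72 without the farthest tumours. Aldoc and the keratinocyte list had r = 0.72 and rho = 0.85 (adjusted permutation p = 0.0201 and 0.00508). These 4 pairs kept an adjusted p under 0.05 by Pearson in every alternative run for them. Spearman was not followed there, no correlation was run with the slide as a block, and the P4ha2 pairs were not run in the deposited table.

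Other pairs did not keep an adjusted p under 0.05 by Pearson in every alternative. Slc16a3 and the granulocyte list had r = 0.86 and rho = 0.78 (adjusted permutation p = 0.00311 and 0.0169), with 0.69 on slide 1 and 0.91 on slide 2. The 7 measured granulocyte markers had means of 1.65 to 2.21 in 4-day tumours, 1.03 to 2.18 in 60-day, 2.25 to 2.66 in untreated and 2.10 to 4.41 in resistant tumours. The correlation was 0.72 (adjusted p = 0.0665) with resistant replicate 1 and untreated replicate 3 left out. Pfkfb4 and the granulocyte list had r = 0.89 and rho = 0.88 (adjusted permutation p = 0.00121 for both), and Aldoa and the 16 skeletal muscle markers had r = 0.81 and rho = 0.91 (adjusted permutation p = 0.00272 and 0.00121). With each array centred on its median in place of loess these were 0.47 and 0.32, with adjusted p of 0.269 and 0.505.

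The fibroblast list ran opposite to a further group of members. Pfkp had r = -0.90 and rho = -0.86 with it (adjusted permutation p = 0.00121 and 0.00544), with -0.89 on slide 1, -0.87 on slide 2 and -0.93 without the 2 farthest tumours. Pdk1 (r = -0.81), Hk2 (r = -0.80), Tpi1 (r = -0.79) and Ero1l (r = -0.69) had the same sign, with adjusted permutation p of 0.0029, 0.00838, 0.00686 and 0.0366. With median centring the 5 values were -0.10, -0.05, -0.07, -0.14 and -0.35, with adjusted p of 0.437 or more, whereas with the processed signals they were -0.90, -0.79, -0.78, -0.81 and -0.72, each with an adjusted p under 0.05. Why median centring differs was not tested. The Ero1l correlation also missed the threshold in most of the alternatives, 14 of 21. Fibroblast markers were at 2.31 to 3.78 in untreated tumours and at 1.93 to 3.62 in the treated ones.

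**Figure D5:**
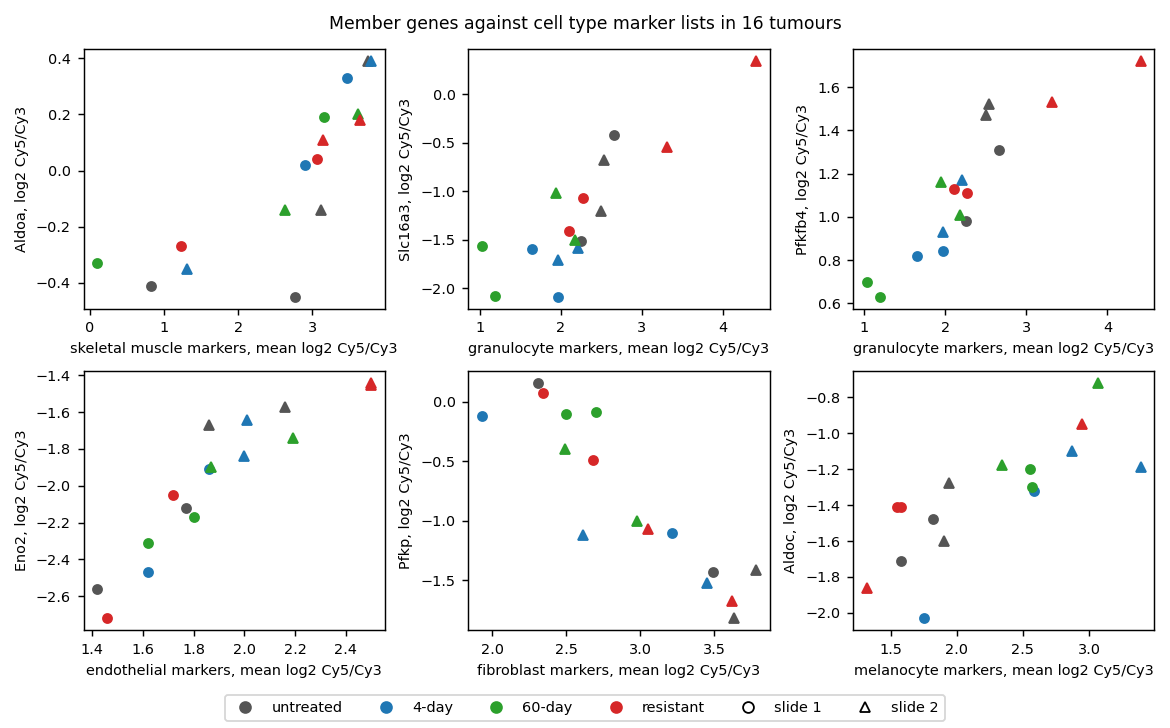
Each panel plots the log2 ratio of a member gene against the mean log2 ratio of a marker list in the 16 tumours, coloured by group, with circles on slide 1 and triangles on slide 2. Eno2 climbs with the endothelial markers (r = 0.92) and Pfkp declines with the fibroblast markers (r = -0.90), with the groups intermixed.

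Of the pathway around the members, 76 further genes in 5 lists were measured, and 1 of them passed the test, a share near that of all genes called at 4 days (1.34%) and at 60 days (0.819%). With the slide as a block 5 passed at 4 days (2.93% of all genes) and 2 at 60 days (2.81%). Pklr, Mxi1, Stc1 and Ero1lb of these lists were not among the genes tested. Plin2, which coats lipid droplets and is a HIF target, was at -0.29, 0.20, 0.80 and 0.34 in untreated tumours and at 1.12, 1.56, 1.13 and 1.79 at 4 days. It was at 1.37, 1.35, 1.81 and 1.57 at 60 days and at 0.84, 1.72, 1.56 and 2.07 in resistant tumours. Every treated tumour lay above every untreated one. Plin2 rose by 1.14 ± 0.26 at 4 days (adjusted p = 0.0493) and by 1.26 ± 0.26 at 60 days (adjusted p = 0.0388), and its difference in resistant tumours was 1.29 ± 0.26 (adjusted p = 0.105). Of the 31 other HIF targets no further gene passed without the block, and with it Insig2 did at 60 days (adjusted p = 0.0323). The list's median was 0.03, 0.06 and 0.25 against untreated in the 3 treated groups. Insig2 (1.39 ± 0.39 at 60 days, adjusted p = 0.0956) and Angptl4 (1.30 ± 0.55 in resistant tumours, adjusted p = 0.468) had its largest differences.

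None of the 11 genes of HIF and its regulators passed, and their medians against untreated were -0.01, -0.01 and 0.01. Hif1a itself differed from untreated by -0.30 ± 0.38, -0.01 ± 0.38 and 0.48 ± 0.38 (adjusted p = 0.798, 0.993 and 0.757). The largest differences there were in Hif3a (1.25 ± 0.49 at 4 days, adjusted p = 0.220) and Cited2 (0.85 ± 0.30 at 4 days, adjusted p = 0.178, and 0.0473 with the slide block). None of 16 other genes of glycolysis and lactate passed, with medians of 0.22, 0.03 and 0.17, and the muscle isoforms Eno3 (-1.53 ± 0.94) and Pgam2 (-0.94 ± 1.19) had the largest differences, both at 60 days against 4 days (adjusted p = 1). None of 10 genes of pyruvate entry to mitochondria passed, with medians of 0.12, 0.17 and 0.06. Pdk4 (1.83 ± 0.60 in resistant against untreated tumours, adjusted p = 0.293) and Pdk2 (0.63 ± 0.16 at 4 days, adjusted p = 0.0703, and 0.0482 with the block) differed most. None of 8 genes of the pentose phosphate and side branches passed, with medians of 0.18, 0.23 and 0.18. G6pdx (0.72 ± 0.30 at 60 days, adjusted p = 0.214) and Gfpt1 (-0.69 ± 0.18 at 4 days, adjusted p = 0.0777, and 0.0353 with the block) differed most. Taldo1 (0.47 ± 0.13 at 4 days, adjusted p = 0.0957) also passed with the block (adjusted p = 0.0491).

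The genes outside the set whose values most resembled the members' median over the 16 tumours were Gm21559 (r = 0.84) and Eln, the elastin gene (r = 0.79). Between them came 3 probes without a gene symbol, at 0.82, 0.82 and 0.81.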

How the data were processed

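The 33 members, the pathway lists and the marker lists were chosen with earlier results of these data known. Each array's deposited file came from Agilent Feature Extraction, version 10.7.3.1 per its header. Per the file headers, it gives intensity for both channels (a spot's mean and the median of its local background, besides processed signals), a log10 ratio of Cy5 to Cy3, and other columns with flags for spots above background, saturated or not uniform. The authors also deposited a table of log2 ratios. Set against the scanner's own ratios in the same log base, these had a slope of 0.993, so the direction is Cy5 over Cy3, with no centring (medians of -0.194 to -0.0638 by array). Between 21.6% and 40.2% of an array's values are missing there, for a reason that neither labels nor headers give.

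From the spot and background intensities, log2 ratios were made with normexp (offset 50) and loess within each array (limma 3.58.1, R 4.3.3). Control spots had no weight and were dropped, and values flagged as outliers (0.55%) were treated as missing. Spots were averaged to probes, and 30486 probes with Cy5 well above background on at least 4 arrays were kept. The brightest probe stood for a gene. Probe names were updated through RefSeq accessions for 28026 probes. The 4 groups entered 1 limma model without a block, with p-values adjusted by Benjamini-Hochberg within each comparison over all 21985 genes and transcripts. The script was tested on simulated data.

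Members named in full had an adjusted p under 0.05, or the 3 highest or 3 lowest differences of a comparison, or groups that did not overlap with untreated tumours. From each pathway list, genes that passed were named, and otherwise the 2 with the largest difference. The genes most like the members' median were the 5 with the highest Pearson correlation. Alternatives were the slide as a block, processed signals, median centring, no filter, the deposited table, the mean over a gene's probes, only the 8 arrays compared, each slide alone and leaving out each of the 16 tumours. The slide comparison, the marker correlations and leaving out 2 tumours together were added after seeing the data.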

Additional observations from a re-analysis of the deposited data

Results flagged for a closer look

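In 132 sets of 4 tumours (33 members in 4 groups), 7 single values lay far from the other 3 of their group, with a gap to the nearest of them, as a share of the group's range, above Dixon's 95% critical value. By chance about 1 in 20 independent sets would be flagged. The sets are not independent, as members correlate with each other and 4 of the 7 values lie in the same tumour. The count therefore cannot be set against that rate. In resistant replicate 1, Egln3 was at -3.18 (the other 3 tumours at 0.52 to 0.94), Car12 at -0.27 (others 1.83 to 2.14), Ankrd37 at -2.67 (others -1.99 to -1.98) and Higd1a at -1.25 (others 0.10 to 0.13). That tumour also had the lowest marker means for melanocytes (1.32), keratinocytes (1.45) and hair shaft and root sheath (1.74), and the highest for granulocytes (4.41) and macrophages (2.72). Whether those cells have a part in the 4 values was not tested. In 4-day replicate 3, Car12 was at 0.71 (others 2.15 to 2.32). In 60-day replicate 2, Egln3 was at 1.23 (others 0.14 to 0.19), and in 60-day replicate 3, Pfkl was at -2.13 (others -1.47 to -1.37).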

How the results depend on the processing

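No paired analysis was possible because the labels give the groups no shared replicate numbers. Under the alternatives, members were called in 3 settings. With the slide as a block, 1 member was called at 60 days against untreated and 1 by the F test. With resistant replicate 1 and untreated replicate 3 left out together there were 2 at 60 days, 2 in resistant against untreated tumours and 3 by the F test, where 12.5%, 4.8% and 6.01% of all genes were called. With single tumours left out there were 0 to 1 at 60 days and 0 to 0 in the other comparisons and the F test. The members' medians ranged over single left-out tumours from -0.23 to 0.02 (4 days), 0.02 to 0.17 (60 days), 0.07 to 0.25 (resistant), 0.12 to 0.22 (60 against 4 days), 0.18 to 0.32 (resistant against 4 days) and 0.06 to 0.18 (resistant against 60 days, -0.08 with median centring).

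The background count of all genes was less stable. At 4 days (295 genes) it was 645 with the slide block, 130 with processed signals, 12 with median centring, 104 in the deposited table, 29 with only the 8 arrays compared, 2024 without the 2 tumours and 45 to 702 without single tumours. At 60 days (180) the same settings gave 618, 77, 12, 74, 1258, 2739 and 22 to 1138. In resistant tumours (4) it was 14 with the block, 1 with median centring, 1 with only the 8 arrays, 1055 without the 2 tumours and 2 to 176 without single ones. At 60 against 4 days (0) it was 1 with the block and 0 to 1 without single tumours. In resistant against 4-day tumours (1) it was 8 with the block, 2 in the deposited table, 2 with the mean over probes, 0 with only the 8 arrays, and 1 to 5 without single tumours, and in resistant against 60-day tumours (0) it was 0 to 1. The F test (59) gave 212 with the block, 4 with median centring, 1322 without the 2 tumours and 13 to 357 without single ones.

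Signs turned for small or single-tumour differences, none of which passed the test. Over single left-out tumours, Kdm3a at 60 against 4 days ranged from -0.20 to 0.00, Egln3 from -0.57 to 0.80 in resistant against untreated and from -1.06 to 0.32 in resistant against 60-day tumours, and Car12 from -0.81 to 0.12 in resistant against 4-day and from -0.76 to 0.05 in resistant against 60-day tumours. The extremes above 0 for Egln3 and Car12 came without resistant replicate 1. Leaving out untreated replicate 3 as well gave 1.13, 0.32, 0.12 and 0.05 for these 4, and -0.11 for Adm in resistant against untreated. Slide 1 alone gave 0.78, 0.56, 0.56 and 0.20, and 0.00 for Car12 at 4 days. Slide 2 alone gave -0.45 for Adm at 4 days, 0.04 for Kdm3a and 0.01 for Aldoa at 60 against 4 days, and 0.12 for Aldoa in resistant against 4-day tumours. Aldoa was also at 0.04 with median centring in the former, and in the latter at 0.05 in the deposited table and 0.02 without 4-day replicate 1 or resistant replicate 4. The correlation of Egln1 with endothelial markers turned from -0.75 to 0.20 with median centring. Of the 22 correlations, 8 kept an adjusted p under 0.05 by Pearson with median centring and 15 without resistant replicate 1. The causes were not tested.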
